A study of Homo sapiens with 4 samples.

Results

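Described here are 10 genes that make, lengthen and desaturate fatty acids, in human microglia-like cells with and without SHIP1: the desaturases SCD, FADS1, FADS2 and FADS3, the elongases ELOVL5 and ELOVL6, the synthesis enzymes FASN, ACACA and ACLY, and the transcription factor SREBF1. All 10 were found among 22590 genes with any count and passed the filter on low counts that left 15378 genes for testing. They were chosen by name from this pathway with the S1KO to WT difference of these libraries already known, so their differences in that comparison are given as a description and not as a test. Messenger RNA was measured by poly-A sequencing in microglia-like cells (iMGL) grown from WTC11, an induced pluripotent stem cell line of human origin in wide use. The libraries S1KO 1 and S1KO 2 came from cells edited to lack SHIP1, the inositol phosphatase encoded by INPP5D. They were set against WT 1 and WT 2, the control genotype in the same line, and no treatment is named for any library. The design text gives 2 clones per genotype, but the labels tie no replicate number to a clone, so the errors below measure only the spread between these 4 libraries.

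Fatty acid synthesis starts in the cytosol. ATP citrate lyase (ACLY) makes acetyl-CoA from citrate, acetyl-CoA carboxylase (ACACA) turns it into malonyl-CoA, and fatty acid synthase (FASN) builds palmitate from both. Elongases of the ELOVL family add carbon pairs in the endoplasmic reticulum, and stearoyl-CoA desaturase (SCD) puts a double bond into saturated chains. FADS1 and FADS2 desaturate the dietary precursors of arachidonic and docosahexaenoic acid. SREBF1 encodes SREBP1, a membrane-bound factor that is cut free to switch on most of these genes, and whose own gene is a target of the oxysterol-sensing LXR receptors. In microglia, these enzymes supply membrane lipids and the precursors of lipid mediators.

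The libraries held 21516813 to 25927881 estimated counts. Mitochondrially encoded genes took 52.32% (S1KO 1) and 39.24% (S1KO 2) of them, against 14.2% (WT 1) and 18.9% (WT 2). That left 9319000 and 12891104 counts for other genes in S1KO, against 18055337 and 20540060 in WT, so the genes below were read at lower depth in S1KO. INPP5D, the edited gene, was at 80.99 and 97.6 CPM in S1KO, against 355.6 and 441 CPM in WT. Here and below, levels in CPM are estimated counts set to a common library size by TMM scaling, which puts the libraries level over the bulk of genes. Microglia and macrophage markers were present in every library. The 12 listed sum to 2917 and 2978 CPM in S1KO and to 3994 and 4438 CPM in WT. WT 1 stood apart from the other 3 libraries in mesenchymal and fibroblast markers, at 3437 CPM for 10 genes, against 5.654 CPM in WT 2 and 11.35 and 22.76 CPM in S1KO. For that reason each gene below is also given against each WT library alone.

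The desaturases SCD and FADS2 fell in S1KO, and every other member had a fold change below 1. In CPM, the S1KO pair lay wholly below the WT pair for 8 of the 10 genes, an arrangement seen for 25.8% of all genes tested. ACLY and SREBF1 were the exceptions. The log2 fold change was negative for 10 of 10, against 51.3% of all genes. The median log2 fold change was -0.863 over the 10 genes and -0.016 over all genes. At an adjusted p under 0.05 (edgeR's quasi-likelihood test over all genes), 2 of the 10 were called lower and 0 higher, where 0.15% of all genes were called lower and 0.787% higher. DESeq2 called 5 of the 10 lower (SCD, FADS1, FADS2, ELOVL5 and FASN), where it called 3.28% of all genes lower and 4.24% higher. On the log2(TPM + 1) scale limma called 8 of the 10 lower, where it called 19.5% of all genes (18.2% with a pseudocount of 0.1, again with 8 of the 10). With no filter edgeR called 5, where it called 3.45% of all genes. In TPM rescaled without mitochondrial genes limma called 1 (FASN), where it called 0.134% of all genes. Because the same comparison chose the genes, nothing is read from these counts. With mitochondrial genes left out of the edgeR fit the median of the 10 genes was -0.86. In bulk RNA, fewer cells that express a gene and less of its RNA per cell cannot be told apart.

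**Figure D1:**
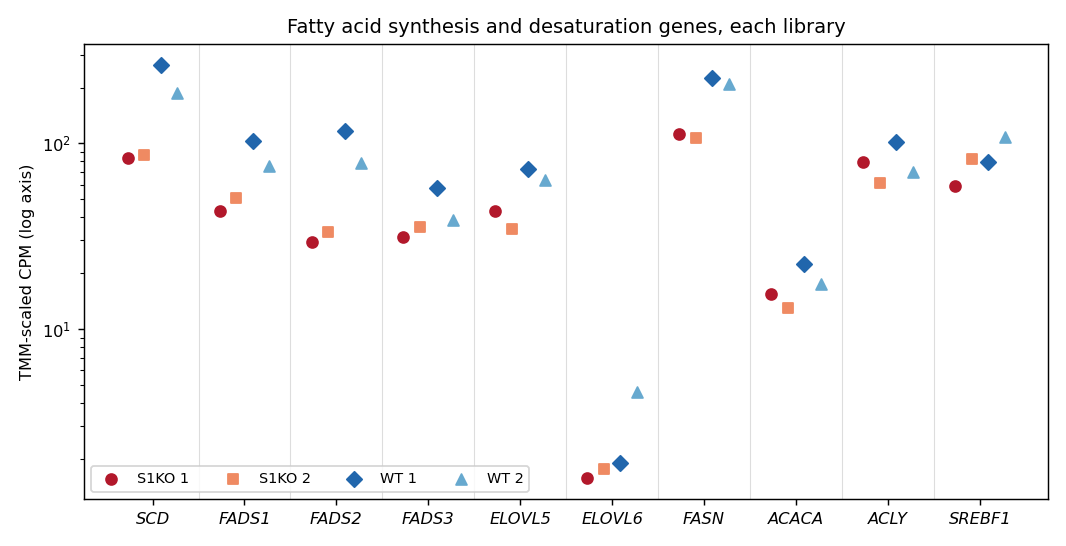
Level of each gene in each library, in TMM-scaled CPM on a log axis, with S1KO 1 and S1KO 2 (red, orange) left of WT 1 and WT 2 (dark and light blue). Both S1KO points lie below both WT points for every gene except ACLY and SREBF1, and the S1KO points of SCD and FADS2 lie close together, far below their WT points.

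The DNA upstream of these genes was searched for 4 motifs in the 300-base promoter windows of RefSeq (250 bases before to 50 after each annotated start, GRCh38.p14). Of the members, 9 have a window, 13 windows in all, and FASN was not searched. The sequences shown are of SCD and FADS2, the members that were called, and of ELOVL5 and ACLY, picked after the search to show other arrangements of CCAAT, the box bound by the SREBP partner NF-Y. SCD, ELOVL5 and ACLY each hold 2 copies, and FADS2 has none in the stretch before its first RefSeq start. FADS1, ELOVL6 and SREBF1 had none in their windows and are not printed. Each is written 5′ to 3′ on the gene's own strand, and the capitals mark CCAAT or its reverse complement ATTGG. SCD is taken from chr10:100346983-100347123 (plus strand), ELOVL5 from chr6:53349008-53349200 (minus strand), ACLY from chr17:41918988-41919201 (minus strand) and FADS2 from chr11:61815953-61816202 (plus strand).
SCD: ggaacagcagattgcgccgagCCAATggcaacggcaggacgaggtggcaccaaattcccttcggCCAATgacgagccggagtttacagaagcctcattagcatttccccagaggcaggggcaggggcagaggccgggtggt
ELOVL5: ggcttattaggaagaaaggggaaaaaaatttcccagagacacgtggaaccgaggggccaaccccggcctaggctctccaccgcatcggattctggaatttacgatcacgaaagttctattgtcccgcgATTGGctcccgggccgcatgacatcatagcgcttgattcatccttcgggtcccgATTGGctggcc
ACLY: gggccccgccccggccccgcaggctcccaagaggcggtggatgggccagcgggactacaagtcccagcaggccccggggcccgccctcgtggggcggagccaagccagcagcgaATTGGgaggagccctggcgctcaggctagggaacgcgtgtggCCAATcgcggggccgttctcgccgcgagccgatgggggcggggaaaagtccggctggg
FADS2: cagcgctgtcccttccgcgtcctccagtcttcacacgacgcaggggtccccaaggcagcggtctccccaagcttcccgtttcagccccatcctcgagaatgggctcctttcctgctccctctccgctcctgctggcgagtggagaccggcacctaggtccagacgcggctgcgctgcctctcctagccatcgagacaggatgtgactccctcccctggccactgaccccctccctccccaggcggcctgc
CCAAT on either strand was found in 8 of the 13 windows, those of 6 members (SCD, FADS2, FADS3, ELOVL5, ACACA and ACLY), and in 34.6% of the 35116 promoter windows of all genes. FADS2 holds it only just after a second RefSeq start, outside the stretch printed. At least 2 copies were found in 6 windows of 5 members (SCD, FADS3, ELOVL5, ACACA and ACLY), and in 10.8% of all windows. The 2 ACLY windows overlap and hold the same 2 copies, so the window counts are not all independent. The GC box GGGCGG was in 10 of the 13 windows, of 8 members, and in 45% of all windows. The E-box CACGTG was in 1 window, that of ELOVL5, inside the stretch shown, and in 7.26% of all windows. The sterol element TCACNCCAC was in 0 of the 13 windows and in 1.13% of all. Each motif was read on both strands, and no CCAAT match in these windows overlapped a match of another motif. These matches describe the letters in the windows only. The first RefSeq start of FADS2 is 11558 bases from the start of FADS2-202, the transcript that took most of that gene's counts. For the transcript with the most counts of FADS3 this distance is 9019 bases, and for that of SREBF1 it is 18659. For ACACA it is 93955 to 201024 bases, depending on the window. The matches in these windows are thus not next to the start of that transcript.

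SCD makes monounsaturated oleic and palmitoleic acid from saturated chains. The gene (ENSG00000099194) lies at chr10:100347124-100364834 on the plus strand of GRCh38 and has 1 annotated transcript, so its count does not depend on how reads were shared among isoforms. SCD was at 83.69 and 86.78 CPM in S1KO 1 and S1KO 2, against 265.5 and 187.4 CPM in WT 1 and WT 2. The S1KO libraries were close to each other and the lower WT library was still above both. SCD averaged 85.2 ± 2.18 CPM in S1KO and 226 ± 55.2 CPM in WT (SD, n = 2 each). It fell by 1.41 on the log2 scale (SE 0.21, 95% interval -1.92 to -0.90), 2.66-fold. SCDP1, its pseudogene, had 0 counts in every library.

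FADS2, the delta-6 desaturase, carries out the entry step of the polyunsaturated pathway. It (ENSG00000134824, chr11:61792980-61867354, plus strand) was at 29.48 and 33.39 CPM in S1KO, against 116.2 and 78.53 CPM in WT. No other member had a lower fold change: it fell by 1.63 on the log2 scale (SE 0.23, 95% interval -2.19 to -1.07), and the higher S1KO library was still well under the lower WT one. FADS1, the delta-5 desaturase that makes arachidonic acid, sits beside it on the opposite strand (ENSG00000149485, chr11:61799625-61829318, minus). FADS1 was at 43.2 and 51.02 CPM in S1KO, against 103.1 and 75.24 CPM in WT, with a log2 fold change of -0.92 (SE 0.21, 95% interval -1.43 to -0.41). The groups did not overlap, but FADS1 and FADS2 share 490 exonic bases on opposite strands. No source used here states whether the libraries kept strand, so reads in those bases cannot be assigned to one gene. FADS2 also shares 49 exonic bases with FEN1 on the same strand.

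FADS3, the neighbour of both, desaturates sphingoid bases (ENSG00000221968, chr11:61873519-61892051, minus strand). It was at 31.5 and 35.62 CPM in S1KO, against 57.47 and 38.43 CPM in WT. WT 2 was thus close to the S1KO libraries and WT 1 was well above them. The log2 fold change was -0.51 (SE 0.23, 95% interval -1.08 to 0.05). Of the desaturases, FADS3 had the interval that included 0.

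The calls of SCD and FADS2 rested on having both S1KO libraries. Without S1KO 1 the log2 fold change was -1.39 for SCD and -1.56 for FADS2, and without S1KO 2 it was -1.45 for SCD and -1.74 for FADS2. In both cases the remaining S1KO library is assumed to vary like WT, and edgeR called 0 genes of all kinds, with 1171 and 1636, in that order, under an unadjusted p of 0.05. Against WT 1 alone the log2 fold change was -1.64 for SCD and -1.88 for FADS2, and against WT 2 alone it was -1.14 and -1.32. In these fits the lone WT library is assumed to vary like S1KO, so no call is read from them.

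ELOVL5 lengthens the polyunsaturated chains that FADS2 and FADS1 desaturate. This gene (ENSG00000012660, chr6:53267398-53349179, minus strand) was at 42.99 and 34.79 CPM in S1KO, against 72.63 and 63.21 CPM in WT. The groups were apart, and each genotype's pair differed by less than the gap between them. Its log2 fold change was -0.81 (SE 0.19, 95% interval -1.26 to -0.36). ELOVL6 lengthens palmitate to stearate, the substrate of SCD. ELOVL6 (ENSG00000170522, chr4:110045846-110199199, minus strand) was the member with the fewest reads, with 23.3 and 37.5 estimated counts in S1KO, against 53.3 and 143 in WT. That gave 1.571 and 1.763 CPM in S1KO, against 1.906 and 4.561 CPM in WT, so WT 1 was close to the S1KO libraries and WT 2 alone was high. The log2 fold change of -0.97 had an SE of 0.54 and a 95% interval of -2.27 to 0.33.

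FASN, the synthase itself, was the most even of the members between the WT libraries, and in S1KO only SCD was more even. At chr17:82078333-82098332 (ENSG00000169710, minus strand), it was at 112.6 and 106.9 CPM in S1KO, against 224.1 and 210.1 CPM in WT. It averaged 110 ± 4.01 CPM in S1KO and 217 ± 9.94 CPM in WT (SD, n = 2 each). Its log2 fold change of -0.98 (SE 0.16, 95% interval -1.37 to -0.60) had the smallest SE of the 10, and the level in WT was 1.98 times that in S1KO.

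ACACA and ACLY, which feed FASN, were less far apart. ACACA (ENSG00000278540, chr17:37084988-37406818, minus strand) was at 15.49 and 12.96 CPM in S1KO, against 22.28 and 17.42 CPM in WT, after the counts of its copy on an alternate contig were added. The log2 fold change of ACACA was -0.48 (SE 0.23, 95% interval -1.03 to 0.07). ACLY (ENSG00000131473, chr17:41866908-41930542, minus strand) was at 79.78 and 61.44 CPM in S1KO, against 102.2 and 70.04 CPM in WT. S1KO 1 lay above WT 2, so the groups overlapped, and the log2 fold change of ACLY was -0.29 (SE 0.24, 95% interval -0.86 to 0.29). It shares 156 exonic bases with AC125257.2 on the opposite strand.

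SREBF1, which encodes the transcription factor, also overlapped between the genotypes. SREBF1 (ENSG00000072310, chr17:17810399-17837002, minus strand) was at 59.09 and 81.88 CPM in S1KO, against 79.77 and 108.7 CPM in WT. S1KO 2 was above WT 1, and replicate 2 was the higher library in both genotypes. The log2 fold change was -0.42 (SE 0.23, 95% interval -0.98 to 0.15), an interval that includes 0. SREBF1 shares 556 exonic bases with RAI1 on the opposite strand.

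**Figure D2:**
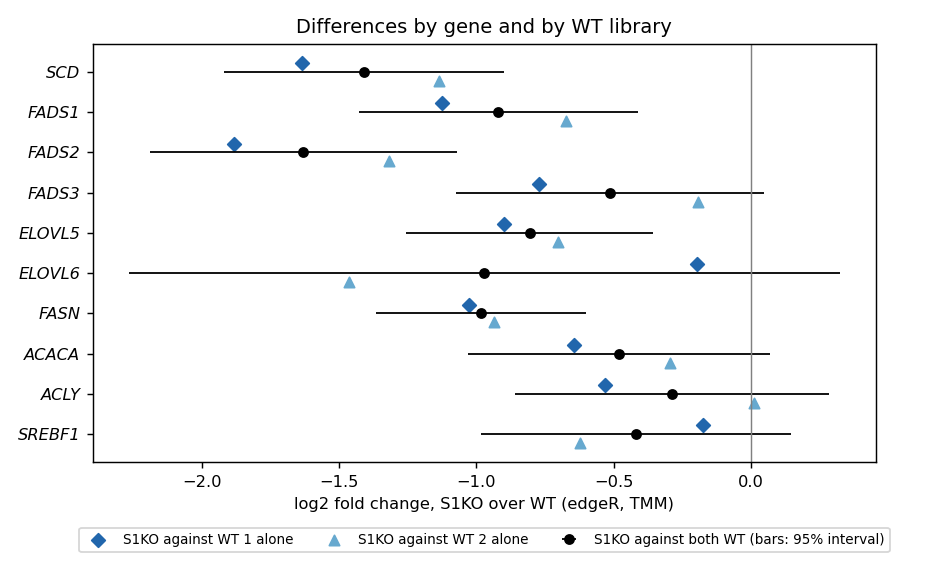
Log2 fold change of S1KO over WT for each gene, with the value against both WT libraries (black, bars are 95% intervals of edgeR's quasi-likelihood fit), against WT 1 alone (dark blue diamonds) and against WT 2 alone (light blue triangles). The values against WT 1 alone are the lower ones for all genes except ELOVL6 and SREBF1.

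The size of the difference depended on which WT library was used, and not in the same way for every gene. SCD was at -1.64 against WT 1 alone and at -1.14 against WT 2 alone (log2 fold change, edgeR). FADS2 was at -1.88 and -1.32, FADS1 at -1.13 and -0.67, and FADS3 at -0.77 and -0.19, in the same order. For these desaturases WT 1 was the higher WT library, by 1.37-fold (FADS1) to 1.5-fold (FADS3). FASN depended least on the WT library, at -1.03 against WT 1 alone and -0.94 against WT 2 alone, followed by ELOVL5 at -0.90 and -0.70. ACACA was at -0.64 and -0.29, and ACLY at -0.53 and 0.01, so against WT 2 alone ACLY was not lower. SREBF1 and ELOVL6 went the other way, at -0.17 and -0.20 against WT 1 alone, and at -0.62 and -1.46 against WT 2 alone. Of the 10 genes, 8 were higher in WT 1 than in WT 2, as were 48.3% of all genes tested. Called lower were 6 members against WT 1 alone, where 7.32% of all genes were, and 7 against WT 2 alone, where 6.53% of all genes were. These 2 comparisons share both S1KO libraries and assume that the lone WT library varies like S1KO, so nothing is read from these calls. WT 1 was the library with mesenchymal RNA, whose part in its levels of these genes was not tested.

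Ratios between members within a library do not depend on scaling between libraries, and several of them lay apart between the genotypes in these libraries. FADS2 stood at 0.683 and 0.654 times the counts of FADS1 in S1KO, against 1.13 and 1.04 times in WT. The ratio was lower in S1KO than in WT, with no overlap. It is one of counts, not adjusted for length, and says nothing of which gene had the higher level. Relative to FADS3 it was at 0.936 and 0.937 in S1KO, against 2.02 and 2.04 in WT. The same held against ACLY: the ratio was 0.37 and 0.543 for FADS2 and 1.05 and 1.41 for SCD in S1KO, against 1.14 and 1.12 for FADS2 and 2.6 and 2.68 for SCD in WT. FASN had 7.27 and 8.25 times the counts of ACACA in S1KO, against 10.1 and 12.1 times in WT. Between the pair of lowest fold change, SCD to FADS2, the ratio was 2.84 and 2.6 in S1KO, against 2.28 and 2.39 in WT. Set against each of the other 9 members, FADS2 had a ratio lower throughout S1KO than anywhere in WT for 8, SCD for 7, FASN for 5, FADS1 for 3, ELOVL5 for 2 and ACACA for 1, and FADS3, ELOVL6, ACLY and SREBF1 for 0. The share of other gene pairs that do so was not computed. These ratios also rest on the comparison that chose the genes, so nothing is read from the counts. SCD against its paralogue SCD5 gave the widest gap plotted, at 7.26 and 6.45 in S1KO, against 74.4 and 54.6 in WT. The pairs written out were chosen after their values were seen, and no test was made.

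**Figure D3:**
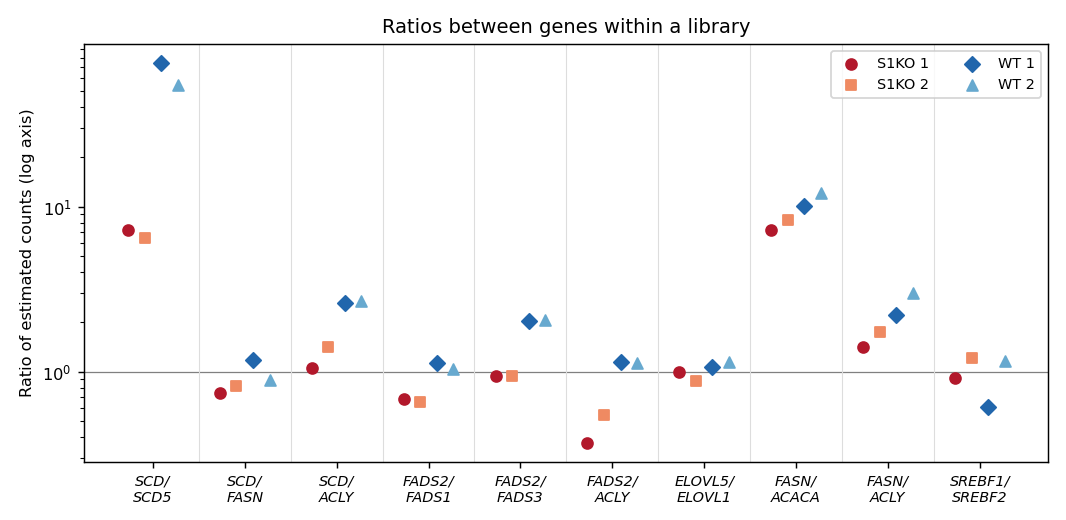
Ratio of estimated counts between pairs of genes within each library, on a log axis, with S1KO 1 and S1KO 2 left of WT 1 and WT 2. SCD to SCD5 lies at 7.26 and 6.45 in S1KO and at 74.4 and 54.6 in WT, FADS2 to FADS1 lies below 1 in S1KO and above 1 in WT, and SREBF1 to SREBF2 overlaps.

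The authors' TPM values, which divide by transcript length, allow levels to be compared between genes. In TPM, SCD was at 9.262 and 15.68 in S1KO, against 76.89 and 49.22 in WT, and FADS2 was at 7.675 and 13.54 in S1KO, against 71.78 and 45.25 in WT. FASN, the member of highest TPM in 3 of the libraries, was at 19.07 and 29.35 TPM in S1KO, against 109.9 and 114.1 TPM in WT. SREBF1 was at 15 and 32.91 TPM in S1KO, against 57.3 and 85.95 TPM in WT, and ranked first in S1KO 2. Of SREBF1's TPM, transcripts annotated as protein coding held 35.76% and 31.72% in S1KO, against 23.74% and 28.84% in WT. Those annotated for nonsense-mediated decay held 45.77% and 50.44% in S1KO, against 48.25% and 33.91% in WT. The rank is thus not that of the coding messenger alone. Between the genotypes the order shifted without overlap at FADS2, which ranked 6 and 6 in S1KO and 3 and 4 in WT, at SCD, which ranked 5 and 4 in S1KO and 2 and 3 in WT, and at ACLY, which ranked 4 and 3 in S1KO and 7 in both WT libraries. ELOVL6 was last and ACACA next to last in every library. Neighbours in this order mostly did not differ beyond the spread between libraries: FADS1, at 6.621 and 13.43 TPM in S1KO, lay beside FADS3, at 7.115 and 10.9 TPM. All 10 members were lower in both S1KO libraries in TPM, as were 71.0% of all genes. TPM is a share of each library's total, mitochondrial RNA included, and the fold changes given for each gene rest on TMM-scaled counts instead.

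Short transcripts weigh heavily in some of these TPM sums. Of FASN's TPM, the transcripts annotated as protein coding held 36.3% and 35.11% in S1KO, against 31.45% and 28.46% in WT, although they held 91.24% and 87.67% of its counts in S1KO, against 87.24% and 85.36% in WT. The full-length FASN-201 alone was at 6.922 and 10.31 TPM in S1KO, against 34.4 and 28.61 TPM in WT, which is below SCD in every library. In ELOVL6 the processed transcripts held 86.57% (WT 1) and 67.5% (WT 2) of TPM, on 4 and 3 estimated counts, so its TPM says little about the enzyme's messenger. ELOVL6-201, one of its coding transcripts, had 0 counts in both S1KO libraries, against 24.6 and 36.9 in WT, and ELOVL6-202 had 23.3 and 36.8 in S1KO, against 24.7 and 103 in WT.

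FADS3 was the member whose split by transcript type differed most between the genotypes. Its retained-intron transcripts, by annotation, held 78.8% (S1KO 1, 95% Wilson interval 74.7 to 82.1) and 81.2% (S1KO 2, 78.2 to 83.8) of estimated counts, against 56.4% (WT 1, 54.0 to 58.8) and 61.8% (WT 2, 59.0 to 64.5). These intervals cover counting error only. The S1KO pair lay wholly above the WT pair, as it did for 15.6% of 5745 genes. These are the protein-coding genes with an annotated retained-intron transcript and at least 100 counts in each library. The group means differed by 20.9 percentage points, and 1.04% of those genes differed by at least as much in this direction. Over all protein-coding genes together the share was 8.87% and 11.3% in S1KO, against 10.8% and 12.5% in WT. The median difference over the 5745 genes was -0.56 points. No test was run on 2 libraries per group.

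Split by type, the lower count of FADS3 in S1KO lay in the coding transcripts. They were at 5.647 and 6.474 CPM in S1KO, against 24.97 and 14.45 CPM in WT. The retained-intron transcripts were at 24.81 and 28.92 CPM in S1KO, against 32.4 and 23.75 CPM in WT, which overlap. The change of share came mainly from a pair of transcripts: FADS3-211, of 5314 bases with a retained intron (chr11:61873524-61882526), took 68.4% and 69% of counts in S1KO, against 38.7% and 48.2% in WT. FADS3-201, the coding transcript of 1790 bases (chr11:61873526-61891534), took 17.9% and 17.2% in S1KO, against 42.7% and 34.1% in WT. Fitted on coding transcripts only, FADS3 had a log2 fold change of -1.69 in place of -0.51, though 0 members were called in that fit (0.0296% of all genes), and FADS3 then stood beside SCD and FADS2. In TPM the retained-intron share was 44.95% and 56.95% in S1KO, against 41.31% and 34.89% in WT, a smaller gap.

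**Figure D4:**
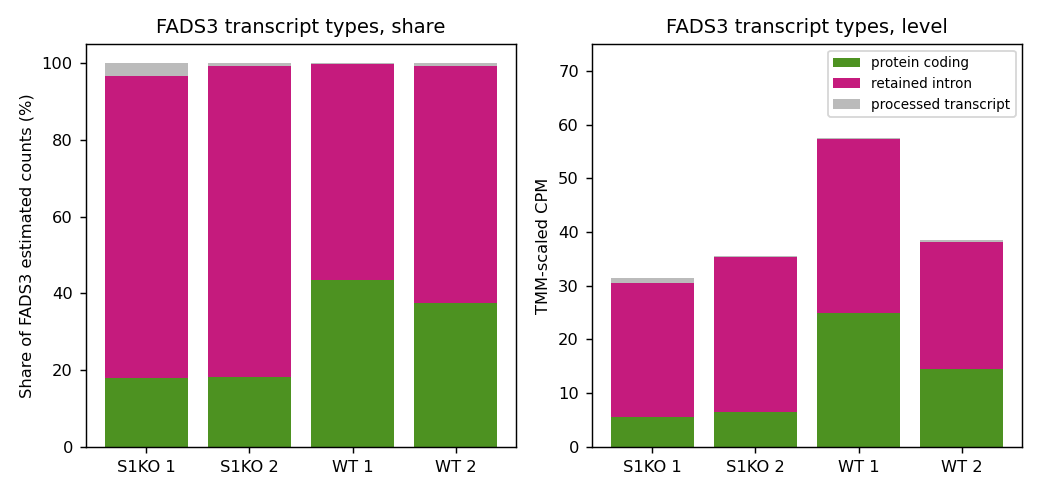
FADS3 by annotated transcript type in S1KO 1, S1KO 2, WT 1 and WT 2, as a share of its estimated counts (left) and as TMM-scaled CPM (right). Coding transcripts (green) make up about 18% of counts in S1KO and 37.6% or more in WT, while the retained-intron level in CPM overlaps between the genotypes.

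The other members showed smaller or less regular differences in transcript make-up. The retained-intron share differed by 1.36 points at FADS2 (higher in S1KO on average), and by -3.03 at FASN and -2.86 at SREBF1 (lower in S1KO on average). At ACACA it was 5.49% and 12.9% in S1KO, against 4.24% and 3.57% in WT, but this rests on 6.38 and 15.4 retained-intron counts in S1KO and leaves out the alternate-contig copy. FADS1-215, a processed transcript, took 6.08% and 10.1% of FADS1 counts in S1KO, against 2.01% and 2.07% in WT. SREBF1-205, a coding transcript that starts inside the gene (chr17:17812073-17819951), took 34.6% and 34.1% of SREBF1 counts in S1KO, against 19.2% and 23.7% in WT. SREBF1-201, whose start lies furthest upstream (17837002), took 12.7% and 8.64% in S1KO, against 14.2% and 20.2% in WT. For FADS2 and ACLY the split among coding transcripts varied as much within a genotype as between them. FADS2-202 took 84.8% and 46.4% of FADS2 counts in S1KO, against 79.4% and 70.7% in WT. ACLY-201 took 64.1% and 50.7% of ACLY counts in S1KO, against 20.1% and 58.4% in WT. The transcripts named here were chosen after their shares were seen.

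The rest of the pathway was read in 9 lists, 125 genes of which 115 were tested, and a single gene was called by edgeR against 21 by DESeq2. For the counts below, 2993 of all 15378 genes (19.5%) had an unadjusted p under 0.05 in edgeR, and 7495 had a positive log2 fold change (48.7%). The lists were drawn up with results of these libraries known. Among 15 tested genes of other desaturases, elongases and the elongation cycle, that gene was SCD5, a human paralogue of SCD, which rose in S1KO while edgeR called none lower. SCD5 was at 11.52 and 13.45 CPM in S1KO, against 3.57 and 3.43 CPM in WT, with a log2 fold change of 1.83 (SE 0.27, edgeR adjusted p = 0.048). Leaving out S1KO 1 gave 1.93 (adjusted p = 0.686) and leaving out S1KO 2 gave 1.7 (adjusted p = 0.442), so its call too rested on both. Over the 15 alternatives the log2 fold change of SCD5 ranged from 0.736, with limma on log2(TPM + 1), to 1.93, and it was called in 8. Among these 8 are the fits with a lone WT library, from which no call is read. Besides the S1KO libraries, the call was lost with limma on either TPM scale, the effective length offset, protein-coding transcripts only and the replicate block. Summed, SCD and SCD5 remained mostly SCD, which was 87.9% and 86.6% of the pair's counts in S1KO, against 98.7% and 98.2% in WT. TECR, which completes each elongation cycle, was at 56.45 and 62.86 CPM in S1KO, against 111.5 and 109.7 CPM in WT (log2 fold change -0.89, SE 0.16, adjusted p = 0.062). DEGS1, the dihydroceramide desaturase, was at 29.02 and 33.21 CPM in S1KO, against 62.39 and 56.3 CPM in WT (-0.93, SE 0.17, adjusted p = 0.073). The median of the list was -0.26, with 10 of 15 negative and 7 at an unadjusted p under 0.05 in edgeR. DESeq2 called 1 of the list higher (SCD5) and 2 lower (TECR and DEGS1).

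Genes that supply acetyl-CoA, malonyl-CoA and NADPH were split, with 6 of 12 negative, a median log2 fold change of -0.02 and 0 called by edgeR (3 at an unadjusted p under 0.05). ME1, a cytosolic malic enzyme that makes NADPH, was at 22.3 and 12.5 CPM in S1KO, against 7.256 and 6.257 CPM in WT (log2 fold change 1.36, SE 0.33, edgeR adjusted p = 0.105). SLC25A1, which exports citrate for ACLY, was at 52.09 and 52.37 CPM in S1KO, against 91.29 and 73.97 CPM in WT (-0.66, SE 0.17, adjusted p = 0.127). Both were called by DESeq2, in opposite directions.

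The SREBP processing machinery had 5 of 7 genes negative, a median of -0.39 and 0 called by edgeR (4 at an unadjusted p under 0.05), while DESeq2 called 3 lower. INSIG1, which holds SREBPs in the endoplasmic reticulum and is itself a target of theirs, was at 28.17 and 31.4 CPM in S1KO, against 67.52 and 125.7 CPM in WT. Its log2 fold change was -1.70 (SE 0.30, edgeR adjusted p = 0.069). INSIG2 was at 11.99 and 11.38 CPM in S1KO, against 23.98 and 22.95 CPM in WT (-1.01, SE 0.19, adjusted p = 0.080). SREBF2, the sterol-directed relative of SREBF1, was at 64.55 and 68.26 CPM in S1KO, against 130.1 and 93.44 CPM in WT (-0.75, SE 0.20, adjusted p = 0.130). The 15 tested sterol genes driven by SREBP2 were negative in 15 of 15, with a median of -0.89, close to that of the 10 fatty acid genes. In CPM, 12 of them had no overlap, with S1KO lower. None was called by edgeR, with 11 at an unadjusted p under 0.05, and 9 were called lower by DESeq2. An example is CYP51A1, a demethylase of cholesterol synthesis, at 16.17 and 14.81 CPM in S1KO, against 45.87 and 29.84 CPM in WT (log2 fold change -1.29, SE 0.25, edgeR adjusted p = 0.082).

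**Figure D5:**
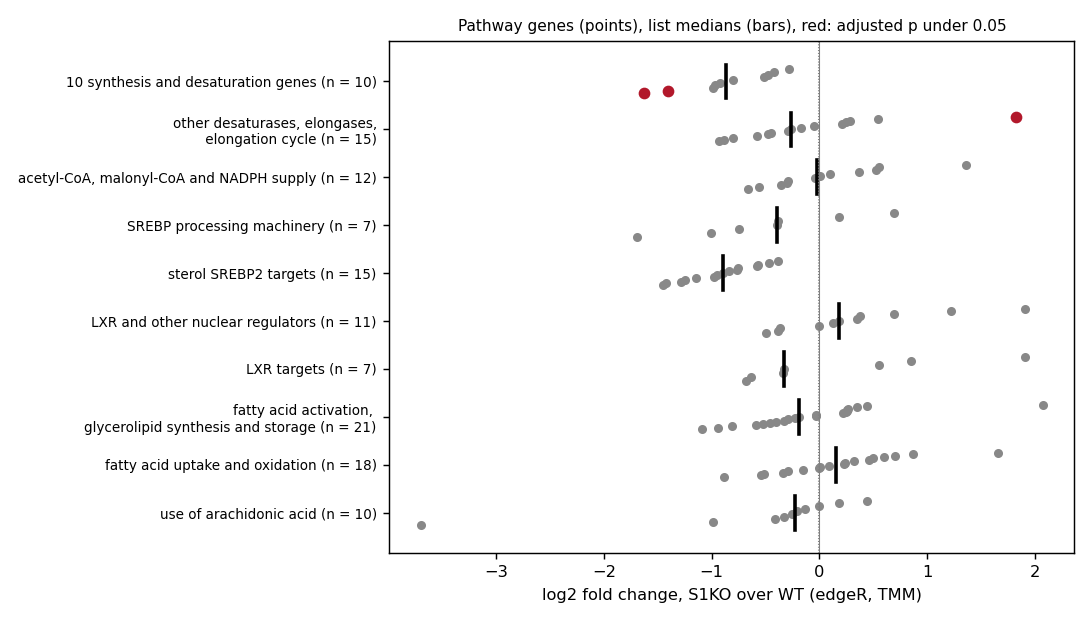
Log2 fold change of S1KO over WT for the 10 genes and for each of 9 pathway lists, with 1 point per tested gene, a black bar at the list median and red points for genes with an edgeR adjusted p under 0.05. SCD and FADS2 are the red points of the first line, SCD5 is the red point of the second, and the sterol genes are the only other list with every point below 0.

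The LXR receptors and other nuclear regulators had 7 of 11 genes positive, a median of 0.18 and 0 called by edgeR (3 at an unadjusted p under 0.05). NR1H3, which encodes LXR-alpha, was at 32.95 and 27.78 CPM in S1KO, against 5.139 and 10.95 CPM in WT (log2 fold change 1.91, SE 0.37, edgeR adjusted p = 0.080), and DESeq2 called it higher. Of the 7 LXR targets none was called by edgeR (1 at an unadjusted p under 0.05), and the median changed sign with the WT library, at 2.15 against WT 1 alone and -1.02 against WT 2 alone. For ABCA1, a cholesterol exporter, the WT libraries lay on either side of S1KO: it was at 11.39 and 13.59 CPM in S1KO, against 2.824 in WT 1 and 28.76 CPM in WT 2. ABCG1 and MYLIP also had both S1KO libraries between WT 1 and WT 2, and all 3 were picked after their values were seen. With NR1H3, the apolipoproteins APOE and APOC1 were the targets higher in S1KO without overlap in CPM: APOE was at 438.2 and 499.4 CPM in S1KO, against 236.9 and 399.8 CPM in WT, and APOC1 was at 60.85 and 66.85 CPM in S1KO, against 17.26 and 53.41 CPM in WT. This arrangement was seen for 3998 of all 15378 genes tested. Both apolipoproteins overlapped in TPM, and the edgeR adjusted p was 0.334 for APOE and 0.380 for APOC1. SREBF1, also lower in WT 1 than in WT 2, stood at 0.734 times its WT 2 level there. NR1H3 was counted in both lists.

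Downstream of synthesis, the 21 genes of fatty acid activation, glycerolipid synthesis and storage had 13 negative, a median of -0.19 and 0 called by edgeR (5 at an unadjusted p under 0.05, 2 by DESeq2). LPCAT2, which remodels phospholipids in macrophages, was at 69.73 and 82.74 CPM in S1KO, against 125.7 and 141.9 CPM in WT (log2 fold change -0.81, SE 0.17, edgeR adjusted p = 0.092). ACSL3, an acyl-CoA synthetase, was at 17.92 and 25.1 CPM in S1KO, against 41.64 and 41.15 CPM in WT (-0.94, SE 0.22, adjusted p = 0.099). ACSL6 went the other way, at low levels of 2.278 and 1.811 CPM in S1KO, against 0.3039 and 0.6297 CPM in WT. Its log2 fold change was 2.08 (SE 0.58, edgeR adjusted p = 0.137). Uptake and oxidation genes had 11 of 18 positive, a median of 0.16 and 0 called by edgeR (4 at an unadjusted p under 0.05, 1 by DESeq2). FABP3, a fatty acid carrier, was at 13.54 and 8.508 CPM in S1KO, against 4.111 and 2.841 CPM in WT (1.66, SE 0.37, adjusted p = 0.095), and CPT2, of the mitochondrial import system, was at 25.58 and 27.84 CPM in S1KO, against 17.04 and 15.86 CPM in WT (0.70, SE 0.19, adjusted p = 0.128). SLC27A4 was lower, at 19.95 and 19.51 CPM in S1KO, against 28.17 and 28.09 CPM in WT (-0.51, SE 0.18, edgeR adjusted p = 0.199). The 10 genes that use arachidonic acid, the product of FADS1, had 7 negative, a median of -0.23 and 0 called by edgeR or DESeq2 (4 at an unadjusted p under 0.05 in edgeR). LTC4S, the leukotriene C4 synthase, was at 6.536 and 8.555 CPM in S1KO, against 12.51 and 17.53 CPM in WT (-0.99, SE 0.28, adjusted p = 0.144). LTA4H went the other way, at 106.2 and 88.93 CPM in S1KO, against 71.07 and 72.83 CPM in WT (0.44, SE 0.16, edgeR adjusted p = 0.220).

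Markers of cell types with high fatty acid synthesis were at low levels in all libraries. The 5 adipocyte markers sum to 1.43 and 1.52 CPM in S1KO, against 0.804 and 1.05 CPM in WT, and CIDEA was at 0 throughout. Of the hepatocyte markers, ALB and FGB were at 0 in every library and the list summed to 4.51 and 6.58 CPM in S1KO, against 2.61 and 5.30 CPM in WT. Pluripotency markers, which would mark cells that had not differentiated, sum to 15.8 and 18.5 CPM in S1KO, against 16.9 and 14.2 CPM in WT. The sums overlap, but 3 of the 4 tested genes (POU5F1, NANOG and LIN28A) were higher in S1KO without overlap in CPM, each at low levels. The same held for 3998 of all 15378 genes tested, and in TPM all 3 of these markers overlapped between the genotypes. DNMT3B, the largest term, did overlap, at 7.412 and 10.06 CPM in S1KO, against 13.65 and 8.907 CPM in WT. The log2 fold changes of these 4 genes had 0.98 as their median, and edgeR called 0 of them. Microglia and macrophage markers had 9 of 12 negative, a median of -0.73, 1 called lower by edgeR and 7 by DESeq2. The gene called was P2RY12, a purinergic receptor of resting microglia, at 11.45 and 12.08 CPM in S1KO, against 36.64 and 27.77 CPM in WT (log2 fold change -1.45, SE 0.22, edgeR adjusted p = 0.048). The part of cell state or of microglial content in the levels of the fatty acid genes was not tested.

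The genes closest to SCD and FADS2 in pattern were found by the root mean square distance between log2 CPM values over the 4 libraries, each gene centred on its mean, among 8621 protein-coding genes with mean TPM of at least 5. Closest to SCD were PDIA3 (distance 0.042), P2RY12 (0.045), XBP1 (0.085), ITM2C (0.10) and the sterol gene CYP51A1 (0.10). PDIA3, an endoplasmic reticulum disulfide isomerase, was at 126.2 and 141.3 CPM in S1KO, against 405.4 and 293.6 CPM in WT. Closest to FADS2 were SULF2 (0.106), P2RY12 (0.108), SCD (0.120), PDIA3 (0.124) and SERPINF1 (0.131), while FADS2 ranked 7 for SCD. Of the other members FADS1 ranked 66 and FASN 71 for SCD, whereas ACLY ranked 1693 and SREBF1 2120. The distance rests on 4 libraries that fall into 2 genotypes and describes their values only.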

How the data were processed

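Messenger RNA of 4 libraries (2 S1KO, 2 WT) was poly-A selected and read as pairs of 150 bases, per the labels' protocols. The submitters' processing notes name kallisto and hg38, but neither a version nor a transcript set. Each library's deposited table holds, per the file headers, an estimated count and a TPM for every transcript, beside its length and effective length. Here transcripts were summed to genes with GENCODE 29: 169797 of 188753 matched by identifier, 15521 by symbol, and 3435 without a gene name (0.323% to 0.643% of counts) were left out. Rounded gene sums were filtered (filterByExpr), scaled by TMM (factors 0.6535 and 0.9574 in S1KO, 1.313 and 1.217 in WT) and tested with edgeR 4.0.16 (quasi-likelihood, two-sided, Benjamini-Hochberg at 0.05 over all genes, R 4.3.3), genotype as the only term. The scripts were tested on simulated data with 200 changed genes. There edgeR made 121 calls, 6 of them false, and called 25% of 2-fold and 90% of 4-fold changes. DESeq2 made 169 calls, 28 of them false, and called 43% and 98%. With limma on TPM, 92 calls were made, 3 of them false, with 11% and 78% called.

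The members and lists were chosen with earlier results of these data known. Named were all 10 members, each list's called genes and up to 3 more of smallest p, and the 5 genes nearest SCD and FADS2; not all of the second kind are written out, and other names were chosen after their values were seen. Alternatives were DESeq2 1.42.0 (test and size factors), limma 3.58.1 on log2(TPM + 1) and log2(TPM + 0.1), other filters, an effective length offset, no mitochondrial genes, protein-coding transcripts only, the replicate block, each library left out and, chosen after seeing the data, TPM rescaled without mitochondrial genes.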

Additional observations from a re-analysis of the deposited data

How the results depend on the processing

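The 10 fatty acid genes kept a negative log2 fold change in all 15 alternatives, except ACLY without WT 1 (0.011; -0.531 without WT 2) and ACACA with TPM rescaled without mitochondrial genes (0.016). SCD ranged from -2.34 to -1.14 and FADS2 from -2.47 to -1.32, and each was called in 10 of the 15. Among these 10 are the fits with a lone WT library, from which no call is read. Also among them are limma on log2(TPM + 1) and log2(TPM + 0.1), where 19.5% and 18.2% of all genes were called lower. In the edgeR fit reported, the adjusted p was 0.0483 for SCD and 0.0443 for FADS2, both near the threshold of 0.05. Both calls were lost with protein-coding transcripts only, in the rescaled TPM, under the replicate block and without either S1KO library. With protein-coding transcripts only, SCD kept a log2 fold change of -1.41 (edgeR adjusted p = 0.0976). The cause of the lost calls was not tested. Members called, 2 in the fit reported, came to 5 with DESeq2, 8 with limma at either pseudocount, 5 with no filter, 0 with protein-coding transcripts only, 1 (FASN) in the rescaled TPM and 0 to 7 with 1 library left out. Their median, -0.863, was -1.71 with log2(TPM + 1), where the median of all genes was -0.885, -1.81 with log2(TPM + 0.1), where it was -1.02, -0.721 in the rescaled TPM, and -0.857 to -0.688 with 1 library left out. Pathway genes called, 1 in the fit reported, came to 21, 41, 38 and 23 with DESeq2, log2(TPM + 1), log2(TPM + 0.1) and no filter, 2 with the effective length offset (LSS lower, NR1H3 higher), 0 with protein-coding transcripts only, 2 in the rescaled TPM and 0 to 40 with 1 library left out. Over all genes 144 were called, 84.03% of them higher in S1KO. This came to 1157 with DESeq2 (56.35% higher), 2721 with log2(TPM + 1) (4.704%), 2549 with log2(TPM + 0.1), 1362 with no filter (42.95%), 223 with a stricter filter, 21 with protein-coding transcripts only, 243 in the rescaled TPM and 0 to 2148 with 1 library left out. Same-numbered libraries did not deviate together (r = 0.023), so they are not taken as pairs; with the replicate block edgeR called 0 genes, 0 members and 0 pathway genes (2892 genes at an unadjusted p under 0.05). ELOVL6 had the fewest counts, 23.3 and 37.5 in S1KO, and the widest interval.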
